A study of Mus musculus with 9 samples.

Results

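Kinesins, cytoplasmic dynein and dynactin are the motors that carry cargo along microtubules, and 47 mouse genes of these families were read on 9 Affymetrix arrays of laser-cut lumbar motor neurons. The members were all genes whose symbol in the platform annotation begins with Kif, Klc, Dync, Dynl or Dctn and for which a probe set names that gene alone. They were 47 of 12393 genes with such a probe set. In each case the probe set with the highest mean log2(signal + 16) over the 9 arrays stood for the gene. A probe set is the group of short probes that reports 1 transcript, and its signal is in arbitrary units. Among the 47 genes, 32 lay in the brighter 50% of all probe sets and were tested, and 15 were too dim to test.

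Spinal muscular atrophy (SMA) is a disease of motor neurons caused by low levels of the SMN protein. Transplanted SMA mice were transgenic SMA animals given NSC (read here as neural stem cells) at postnatal day 1. SMA mice were transgenic SMA animals operated on with vehicle at the same age, and wild-type mice were operated on with vehicle likewise. All animals were killed at 13 days, each group had 3 mice, and the cells on an array came from 1 mouse, in caps of about 100 cells. The labels give no transgene, allele, strain or sex, and the SMA and wild-type groups shared the surgery but not the cells. RNA from perfusion-fixed sections of 16 µm was amplified in a double procedure before hybridisation.

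In an axon, microtubules point their plus ends towards the synapse. Most kinesins walk to plus ends and so move synaptic vesicle precursors, mitochondria and other cargo outward (anterograde transport). Cytoplasmic dynein walks to minus ends with its cofactor dynactin and returns endosomes, signalling complexes and worn organelles to the cell body (retrograde transport). Motor neurons have very long axons, and in people inherited changes in KIF5A, DYNC1H1 and DCTN1 cause diseases of motor neurons or their axons.

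The arrays had median signals of 31.4 to 35.8 and total signals of 3226815 to 3453157. The ratio of the actin probe sets at the 3′ end to those at the 5′ end ran from 2.48 to 4.32 and was highest on SMA 3 (4.32) and wild type 3 (3.66). The same pair had the highest 18S ribosomal signals, 2765 on SMA 3 and 2940 on wild type 3, against 839 to 1832 on the other arrays. SMA 1 and SMA 2 stood apart by the summed signal of 12 muscle markers, 3020 and 3480 against 128 to 501 on the other arrays. Acta1 had signals of 1288.7 and 1413.7 against 1.5 to 27.1. Some members went the other way: Pvalb was lowest on SMA 2 (4.4), and the dim Myh1 and Myh4 were highest on wild type 3 (32.8 and 11.0). Defining motor neuron transcripts were dim, with mean signals over 9 arrays of 13.4 ± 11.9 for Slc18a3, 7.90 ± 3.03 for Slc5a7 and 8.83 ± 3.82 for Isl1 (SD, n = 9), and only 3 of the 11 motor neuron markers measured reached the brightness needed for testing. Those tested were Isl2, Ache and Mmp9. Of 17 neuronal markers 15 were bright enough to test, with mean signals of 871 ± 272 for Nefl and 452 ± 215 for Stmn2 (SD, n = 9). Rbfox3 was dim, at 24.1 ± 4.53. The myelin transcript Mbp had a mean signal of 10700 ± 1620 (SD, n = 9). Signals of different probe sets do not rank genes against each other. A motor's signal here is that of the captured material. In such samples, fewer cells of a type and less RNA per cell cannot be told apart.

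No motor gene passed the test in any comparison, and the fitted differences were small. At an adjusted p under 0.05 (limma, Benjamini-Hochberg over 11313 probe sets), 0 of 32 tested motors were called in SMA against wild type, where 0.0442% of all tested probe sets were called. The count was 0 of 32 in transplanted SMA against SMA, where 0.0% of all were called, and 0 of 32 in transplanted SMA against wild type, with 0.0% again. The lowest adjusted p among the motors was 0.829, 0.933 and 0.699 in the 3 comparisons in that order. At an unadjusted p under 0.05 there were 0 motors in SMA against wild type (6.04% of all tested probe sets), 1 in transplanted SMA against SMA (4.77%) and 2 in transplanted SMA against wild type (6.55%). The log2 differences of the 32 motors ran from -0.41 to 0.29 in SMA minus wild type, from -0.42 to 0.67 in transplanted SMA minus SMA and from -0.37 to 0.60 in transplanted SMA minus wild type. Their medians were -0.03, 0.06 and -0.01, beside 0.01, 0.00 and -0.01 over all tested probe sets. Since each comparison shares an arm of 3 arrays with another, the 3 sets of differences are not independent of each other.

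The intervals limit how large a change these arrays could have missed. The median standard error of a motor's log2 difference was 0.20. In SMA minus wild type, 31 of 32 motors had a 95% interval that lay within 1 log2 unit of 0, as did 88.0% of all tested probe sets. The same count was 31 of 32 in transplanted SMA minus SMA (87.7% of all) and 28 of 32 in transplanted SMA minus wild type (87.2%).

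**Figure D1:**
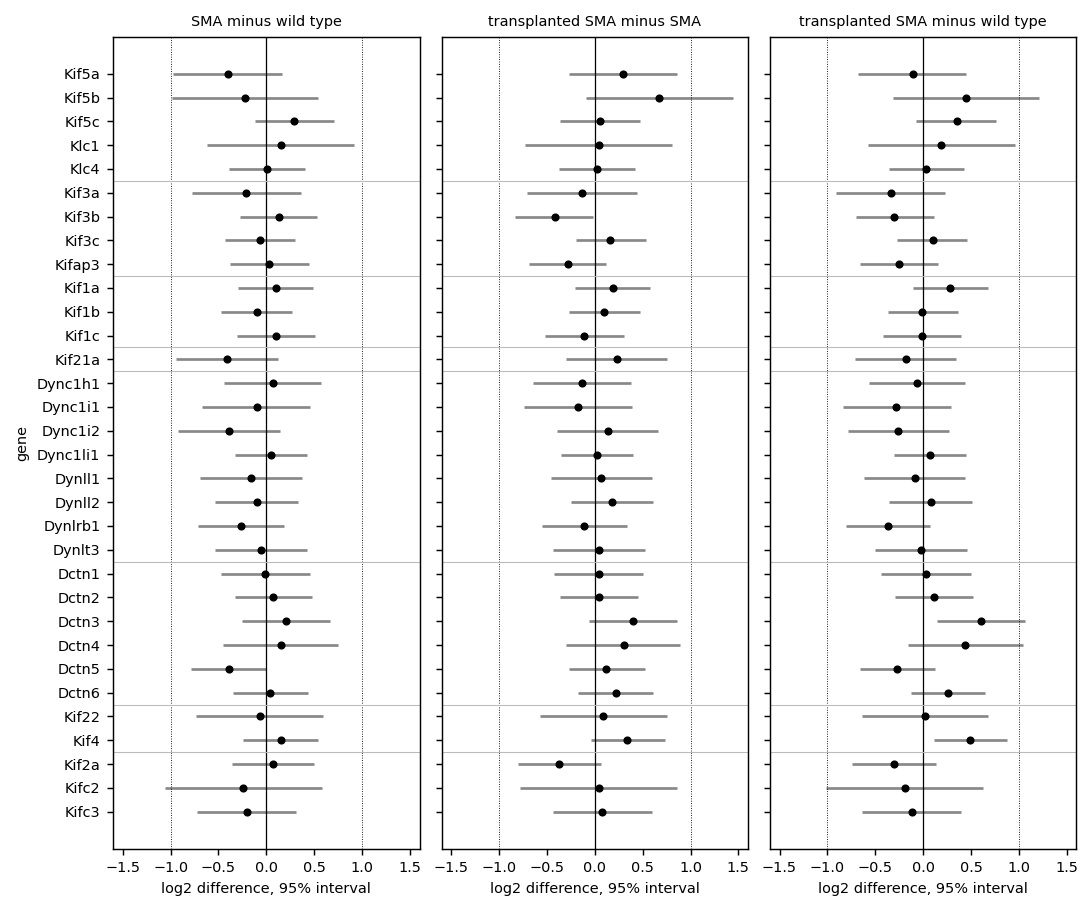
Log2 difference in log2(signal + 16) of each of the 32 tested motors (points) with its 95% interval from limma (bars) in the 3 comparisons, by role group. The points lie between -0.42 and 0.67, and the intervals of nearly all genes cross 0.

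Some motors had groups that did not overlap, with all 3 arrays of one above or below all 3 of the other. In SMA against wild type 1 of 32 motors did not overlap (Dctn5, lower in SMA), where 11.4% of all tested probe sets did so. In transplanted SMA against SMA there were 3 of 32 (Kif4 higher, Kif3b and Kif2a lower in transplanted SMA), beside 9.11% of all. In transplanted SMA against wild type there were 5 of 32 (Dctn3, Kif4 and Kif5c higher, Kif3b and Dynlrb1 lower in transplanted SMA), beside 14.1%. These shares of the motors lie near the background or below it.

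**Figure D2:**
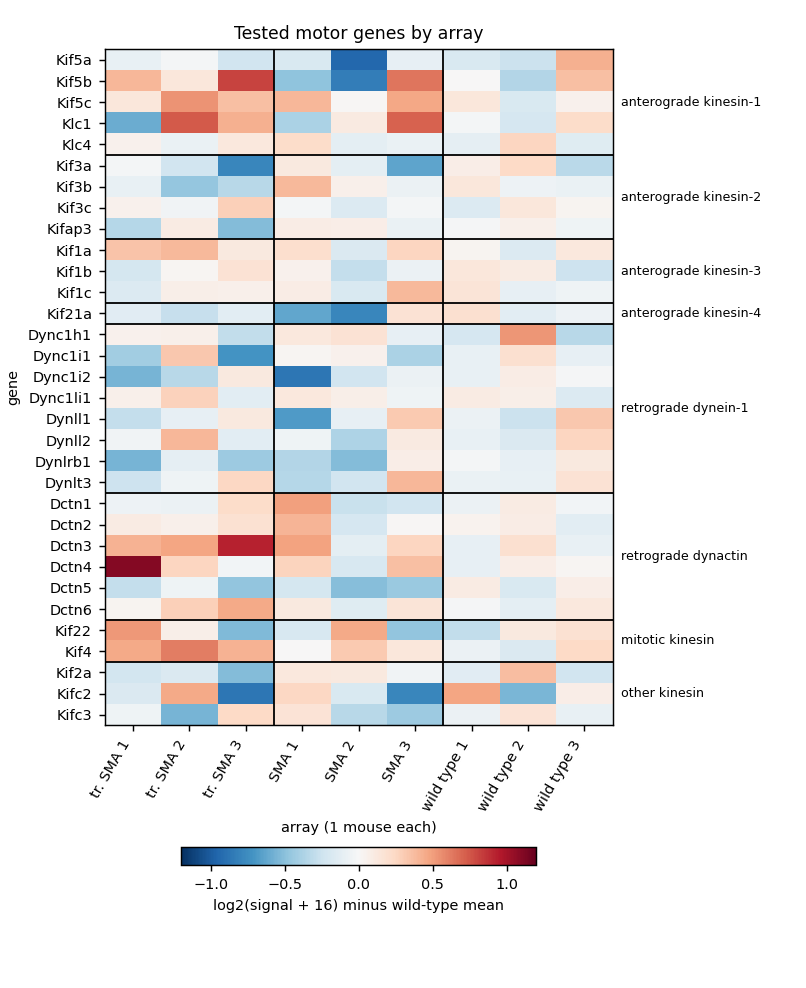
Log2(signal + 16) of the 32 tested motors on each of the 9 arrays, minus the gene's wild-type mean, by role group (red above, blue below the wild-type mean). SMA 2 is mostly blue, and all 6 dynactin genes have their lowest value there on the brightest probe sets, which are the ones drawn.

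Anterograde and retrograde motors had medians near 0 in each comparison. Of 18 anterograde genes 13 were tested, and of 15 retrograde genes 14 were. In SMA minus wild type the median log2 difference was 0.01 over the anterograde genes (7 positive and 6 negative) and -0.03 over the retrograde genes (6 positive and 8 negative). In transplanted SMA minus SMA both medians were 0.05, with 9 of 13 anterograde and 11 of 14 retrograde differences positive, beside 50.3% positive over all tested probe sets. In transplanted SMA minus wild type the medians were -0.01 and 0.01.

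Set by array, the mean deviation of the anterograde motors from the wild-type mean was -0.05, 0.07 and 0.03 on transplanted SMA arrays, -0.01, -0.25 and 0.12 on SMA arrays, and 0.03, -0.05 and 0.02 on wild-type arrays (log2 units). The retrograde motors deviated by -0.05, 0.10 and 0.00 on transplanted SMA arrays, by -0.03, -0.19 and 0.03 on SMA arrays, and by -0.05, 0.03 and 0.02 on wild-type arrays. Both kinds were lowest on SMA 2 and the groups overlapped, while on wild type 1 and wild type 2 the 2 kinds deviated in opposite directions. Anterograde minus retrograde came to -0.03 to 0.02 on transplanted SMA arrays, to -0.07, 0.02 and 0.09 on SMA arrays and to -0.08 to 0.08 on wild-type arrays. The balance of the 2 directions therefore differed between SMA arrays by as much as it did between wild-type arrays.

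**Figure D3:**
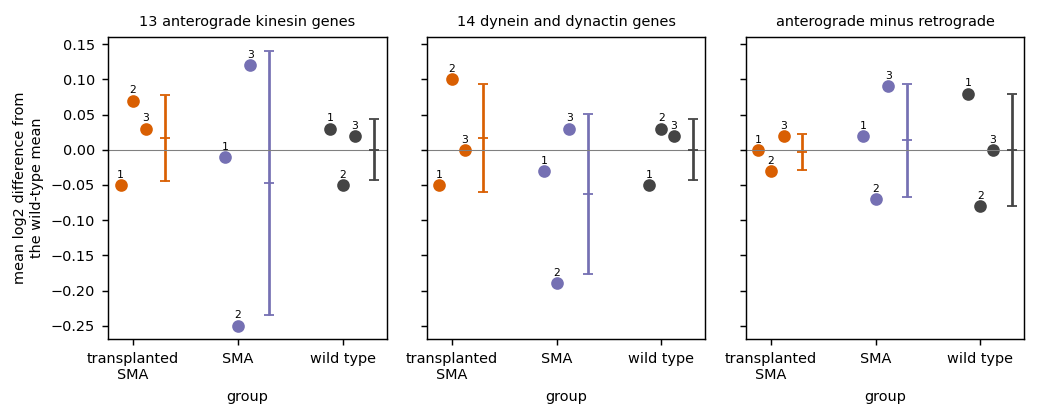
Mean deviation from the wild-type mean, in log2(signal + 16) units, of the 13 tested anterograde and 14 tested retrograde motors on each array (numbered points), the difference of both means (right), and the mean ± SD of each group beside them. Both means lie lowest on SMA 2 (-0.25 and -0.19) and elsewhere between -0.05 and 0.12.

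Kinesin-1, the main carrier of mitochondria and many vesicles in axons, is built from a pair of Kif5 heavy chains and light chains that hold cargo. Kif5b, the heavy chain made in most cells, had signals of 576.3, 477.6 and 768.1 in transplanted SMA, 305.5, 236.7 and 680.7 in SMA, and 431.5, 335.1 and 557.5 in wild type. The arrays numbered 3 were the highest of each group, SMA 1 and SMA 2 were the lowest of all 9, and the groups overlapped through SMA 3. Its log2 difference was 0.67 in transplanted SMA minus SMA (SE 0.35, 95% interval -0.09 to 1.44, adjusted p = 0.933), the largest among the 32 motors. Without SMA 3 the difference was 1.10, and without SMA 1 and SMA 2 it was -0.19. In SMA minus wild type it was -0.22 (SE 0.35), or 0.64 without SMA 1 and SMA 2. The other 4 tested Kif5b probe sets gave 0.42, 0.26, 0.09 and 0.06 in transplanted SMA minus SMA, and on each of them SMA 3 was again the highest SMA array.

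The summed signal of 9 oligodendrocyte markers was 29700, 30100 and 41800 in transplanted SMA, 24200, 21500 and 39500 in SMA, and 28500, 30700 and 34100 in wild type. This sum, like Kif5b, was highest on the third array of each group and lowest of all on SMA 2. Its brightest members were Mbp, Cnp and Mobp, with mean signals over 9 arrays of 10700, 6720 and 6190. Mag and Gjb1 went the other way in 2 groups, lowest on SMA 3 (916.7 and 18.2) and on wild type 3 (1007.8 and 67.7). The summed signal of 17 neuronal markers was 3210, 6000 and 2580 in transplanted SMA, 4580, 3270 and 2350 in SMA, and 3750, 3680 and 3170 in wild type. The neuronal sum was lowest on the third array of each group. Its members Nefh and Thy1 went the other way among SMA arrays, highest on SMA 3 (87.1 and 181.3). The part of cell makeup in the Kif5b values was not tested.

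**Figure D4:**
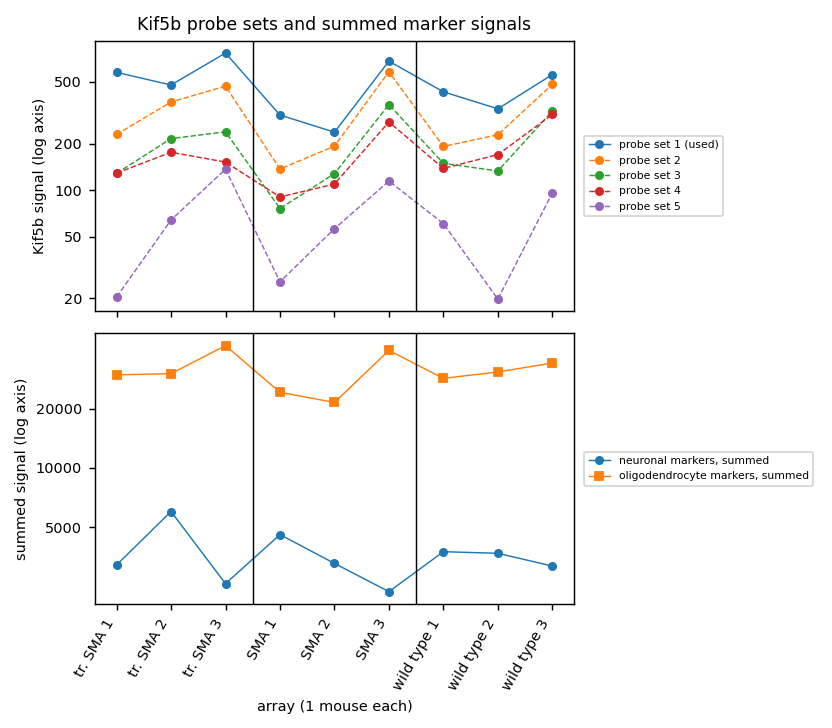
Top, signals of the 5 tested Kif5b probe sets on the 9 arrays, in arbitrary units on a log axis. Bottom, summed signals of oligodendrocyte and neuronal markers on the same arrays, also on a log axis; in the SMA group all 5 probe sets and the oligodendrocyte sum are highest on SMA 3.

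Kif5a and Kif5c are the heavy chains enriched in neurons. Kif5a had signals of 56.8, 60.5 and 50 in transplanted SMA, 52.4, 24.5 and 56.4 in SMA, and 52.5, 48.9 and 88.7 in wild type. SMA 2 was the lowest array and wild type 3 the highest, and the groups overlapped. Its difference was -0.40 in SMA minus wild type (SE 0.26, adjusted p = 0.922), or -0.14 without SMA 2 and -0.19 without wild type 3. Kif5c had 363.0, 481.4 and 424.2 in transplanted SMA, 437.1, 330.0 and 457.1 in SMA, and 360.8, 286.4 and 338.4 in wild type. All 3 transplanted SMA values lay above all wild-type values, by 0.35 log2 units (SE 0.19, adjusted p = 0.793), while SMA overlapped both groups. Kif5c also had the largest positive difference of the 32 motors in SMA minus wild type, 0.29 (SE 0.19, adjusted p = 0.924).

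Klc1, a light chain of neurons, varied widely among mice of 1 group, with 236.6, 623.8 and 499.5 in transplanted SMA, 278.9, 397.7 and 611.7 in SMA, and 360.4, 316.9 and 431.2 in wild type. Its differences of 0.15, 0.04 and 0.19 in the 3 comparisons had a standard error of 0.35. Klc4, another light chain, was even, from 93.6 to 130.1 over the 9 arrays, and Klc3 was dim (1.6 to 16.7). All 5 tested kinesin-1 genes had a positive difference in transplanted SMA minus SMA, from 0.02 to 0.67 with a median of 0.05, and none passed the test.

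Heterotrimeric kinesin-2 is made of the motor subunits Kif3a and Kif3b and the adaptor Kifap3. It moves vesicles in axons and builds cilia. On their brightest probe sets all 3 subunits had negative differences in transplanted SMA minus SMA and in transplanted SMA minus wild type, and the promoters of their genes are printed for that reason, a choice made after the values were seen. Each window runs from 250 bases before to 50 bases after the gene's start in RefSeq on GRCm38.p6, on the plus strand: Kif3a at chr11:53567119-53567418, Kif3b at chr2:153291166-153291465 and Kifap3 at chr1:163779333-163779632. Capitals mark the motif matches found on either strand.
Kif3a: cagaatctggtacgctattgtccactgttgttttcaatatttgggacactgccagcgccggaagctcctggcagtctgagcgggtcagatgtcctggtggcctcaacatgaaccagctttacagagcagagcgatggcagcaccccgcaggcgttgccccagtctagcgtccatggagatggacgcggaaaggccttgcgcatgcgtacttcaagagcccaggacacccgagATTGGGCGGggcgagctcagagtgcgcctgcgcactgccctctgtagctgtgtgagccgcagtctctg
Kif3b: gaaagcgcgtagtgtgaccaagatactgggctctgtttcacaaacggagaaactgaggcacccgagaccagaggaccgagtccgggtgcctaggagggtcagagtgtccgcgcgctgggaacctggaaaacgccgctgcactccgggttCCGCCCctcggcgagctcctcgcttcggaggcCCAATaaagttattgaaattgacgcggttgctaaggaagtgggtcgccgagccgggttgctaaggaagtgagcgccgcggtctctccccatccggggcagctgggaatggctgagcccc
Kifap3: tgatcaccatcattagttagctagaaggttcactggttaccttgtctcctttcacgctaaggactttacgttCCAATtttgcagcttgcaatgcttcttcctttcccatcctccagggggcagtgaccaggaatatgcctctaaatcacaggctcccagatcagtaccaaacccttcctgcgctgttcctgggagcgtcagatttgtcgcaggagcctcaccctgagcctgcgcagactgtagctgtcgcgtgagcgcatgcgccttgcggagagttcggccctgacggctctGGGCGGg
The motifs searched, on both strands, were GGGCGG (a GC box, in 35.7% of 32851 promoters of the same length), CCAAT (37.4%), TATAAA (13.6%) and TGACGTCA (the site of CREB, 1.79%). All 3 promoters held 1 GC box and 1 CCAAT match, and in Kif3a these overlap. The TATAAA and TGACGTCA letters were not in these windows. The GC content was 59.7%, 62.0% and 55.0% for Kif3a, Kif3b and Kifap3, beside a median of 52.7% over all promoters.

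Kif3b had signals of 61.0, 43.6 and 49.3 in transplanted SMA, 91.4, 69.9 and 62.3 in SMA, and 74.8, 62.6 and 61.7 in wild type. All 3 transplanted SMA values lay below all SMA and all wild-type values. Its difference in transplanted SMA minus SMA was -0.42 (SE 0.18, 95% interval -0.83 to -0.02, unadjusted p = 0.041, adjusted p = 0.933), the lowest of the 32 motors. A second tested Kif3b probe set gave -0.04 (SE 0.17), so the size of the difference depended on the probe set. In transplanted SMA minus wild type the values were -0.30 (SE 0.18) and, on the second probe set, -0.12 (SE 0.17).

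Kif3a had 158.1, 134.0 and 86.6 in transplanted SMA, 175.4, 146.7 and 97.7 in SMA, and 169.9, 192.0 and 125.5 in wild type. On this probe set the third array of each group was its lowest, as for the neuronal sum, and the groups overlapped. The differences were -0.21, -0.13 and -0.34 in the 3 comparisons (SE 0.26). A second Kif3a probe set gave 0.12 in transplanted SMA minus SMA. It was highest on the third array in transplanted SMA (103.3) and wild type (118.0) and lowest there in SMA (81.9). Kifap3 had 268.2, 369.2 and 234.8 in transplanted SMA, 366.0, 364.6 and 324.3 in SMA, and 341.6, 359.0 and 331.5 in wild type. Transplanted SMA 1 and 3 were the 2 lowest arrays, and transplanted SMA 2 was the highest. Its difference in transplanted SMA minus SMA was -0.28 (SE 0.18, adjusted p = 0.933), and its second probe set gave 0.20 (SE 0.18), the opposite sign. The median of the 3 subunits on their brightest probe sets was 0.03 in SMA minus wild type, -0.28 in transplanted SMA minus SMA and -0.30 in transplanted SMA minus wild type. In the last comparison the second probe sets of Kif3a and Kifap3 gave 0.06 and 0.19, of the opposite sign. Other cell markers differed beside these: the summed signal of 11 microglial markers was 5750, 5610 and 11600 in transplanted SMA, 12300, 10600 and 12600 in SMA, and 6690, 10300 and 14600 in wild type. Their median log2 difference was -0.82 in transplanted SMA minus SMA, with 5 of 11 lower at an unadjusted p under 0.05 and 0 past the test. Of all tested probe sets 4.77% had an unadjusted limma p under 0.05 in that comparison, in either direction. The 3 tested motor neuron markers, Isl2, Ache and Mmp9, had a median of 0.67, with 2 higher at that p and 0 past the test. Mmp9 went the other way, with a mean signal of 42.0 in transplanted SMA and 46.5 in SMA. The summed signal of 11 motor neuron markers was 308, 448 and 232 in transplanted SMA and 276, 218 and 173 in SMA. These sums overlap. The part of these cells in the kinesin-2 values was not tested.

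Kif3c, a neuronal partner of Kif3a, ran from 224.6 to 312.7 over the 9 arrays, with differences of -0.07, 0.16 and 0.10 (SE 0.17). Kif17, the homodimeric kinesin-2 of dendrites and cilia, was dim, with 67.9, 35.4 and 31.1 in transplanted SMA, 40.2, 34.4 and 17.9 in SMA, and 32.2, 17.6 and 23.5 in wild type. It was not tested.

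Kinesin-3 motors carry synaptic vesicle precursors and dense core vesicles. Kif1a, the neuronal carrier of vesicle precursors, had 168.0, 173.5 and 141.7 in transplanted SMA, 150.8, 113.0 and 157.1 in SMA, and 132.4, 113.7 and 142.0 in wild type. On this probe set the groups overlapped, and the differences were 0.10, 0.19 and 0.28 (SE 0.18, lowest adjusted p = 0.842). A second tested Kif1a probe set had 42.0, 54.6 and 43.8 in transplanted SMA and 62.2, 36.4 and 40.8 in SMA. Its wild-type values of 34.3, 29.1 and 31.5 lay below all SMA and all transplanted SMA values. The differences there were 0.37, 0.02 and 0.39 (SE 0.19, lowest adjusted p = 0.754). Kif1b, which carries mitochondria and vesicle precursors in its splice forms, had 1603.0, 1884.7 and 2083.6 in transplanted SMA, 1920.6, 1509.2 and 1770.8 in SMA, and 2047.6, 1990.8 and 1560.9 in wild type. Its differences of -0.10, 0.10 and -0.01 were within 1 standard error (0.17) of 0. Its 4 other tested probe sets gave -0.50 to 0.59 in transplanted SMA minus wild type, none past the test. Kif1c, a carrier of dense core vesicles, ran from 243.2 to 370.7 with differences of 0.10, -0.11 and -0.01. Kif13a and Kif16b, carriers of endosomes, were dim.

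Kif21a, a kinesin-4 that slows microtubule growth, had 153.3, 137.0 and 154.1 in transplanted SMA, 105.0, 92.3 and 194.2 in SMA, and 196.7, 153.7 and 163.0 in wild type. SMA 1 and SMA 2 were the lowest and SMA 3 nearly the highest of all arrays. Its difference of -0.41 in SMA minus wild type (SE 0.24, adjusted p = 0.888) was the lowest of the 32 motors there. Without SMA 1 and SMA 2 it was 0.17, of the opposite sign.

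Dynein-1 is built on the heavy chain Dync1h1, which carries the motor domain. Dync1h1 had 623.4, 625.9 and 484.7 in transplanted SMA, 657.6, 678.0 and 559.5 in SMA, and 521.4, 874.1 and 472.5 in wild type. Wild-type mice spanned the SMA and transplanted SMA values, and the differences were 0.07, -0.13 and -0.06 (SE 0.23).

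The intermediate chains link the heavy chain to dynactin. Dync1i2, the chain of most cells, had 301.7, 355.6 and 492.3 in transplanted SMA, 238.8, 383.1 and 428.3 in SMA, and 424.2, 482.9 and 448.4 in wild type. SMA 1 was the lowest array, and SMA 3 overlapped wild type. The difference in SMA minus wild type was -0.39 (SE 0.24, adjusted p = 0.908), or -0.07 without SMA 1 and SMA 2. Dync1i1, the chain enriched in neurons, had 33.2, 66.2 and 24.2 in transplanted SMA, 51.0, 52.2 and 34.9 in SMA, and 46.2, 59.2 and 45.6 in wild type. In each group the second array was highest and the third lowest. Its differences were -0.10, -0.17 and -0.28 (SE 0.26). Dync1li1, the light intermediate chain that binds cargo adaptors, was the steadiest dynein subunit, with 79.4, 95 and 67.4 in transplanted SMA, 83.6, 79.7 and 72.4 in SMA, and 81.6, 79.6 and 65.6 in wild type.

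The light chains Dynll1, Dynll2, Dynlrb1 and Dynlt3 join the intermediate chains. Dynll1, also a hub of many other complexes, had 2994.1, 3435.5 and 3993.7 in transplanted SMA, 2282.7, 3420.4 and 4562.6 in SMA, and 3509.2, 3070.3 and 4597.2 in wild type. Dynll2, its close homologue, had 1563.7, 2131.0 and 1475.9 in transplanted SMA, 1558.4, 1240.8 and 1742.8 in SMA, and 1515.1, 1431.8 and 1931.4 in wild type. On these probe sets both overlapped between all groups. Another tested Dynll1 probe set had 1578.3, 1540.7 and 1815.6 in SMA, all below 1977.6, 1823.3 and 2093.4 in wild type. Its difference in SMA minus wild type was -0.26 (SE 0.13, adjusted p = 0.865), beside -0.16 (SE 0.24) on the brightest. A second Dynll2 probe set gave 0.40 in transplanted SMA minus SMA (SE 0.22, adjusted p = 0.933), beside 0.18 (SE 0.20) on the brightest. Dynlrb1, of the roadblock family, had 178.4, 249.4 and 195.0 in transplanted SMA, 208.8, 183.6 and 286.6 in SMA, and 266.4, 251.4 and 295.2 in wild type. All transplanted SMA values lay below all wild-type values, by -0.37 log2 units (SE 0.20, adjusted p = 0.795), the largest negative difference of that comparison. Dynlt3, of the Tctex family, had 700.6, 805.1 and 993.2 in transplanted SMA, 655.2, 709.4 and 1106.4 in SMA, and 787.9, 781.5 and 944.2 in wild type, highest on the third array each time. Over the 8 dynein genes the median difference was -0.10 in SMA minus wild type, 0.03 in transplanted SMA minus SMA and -0.08 in transplanted SMA minus wild type. Dynlt1f was dim, and 3 probe sets that name several Dynlt1 copies were left out.

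Dynactin tethers dynein to microtubules and cargo. Dctn1, the subunit that binds microtubules and dynein, had 556.0, 550.0 and 677.8 in transplanted SMA, 817.1, 477.4 and 490.5 in SMA, and 550.9, 621.0 and 567.3 in wild type. SMA mice held both the highest and the lowest values, and the differences were -0.01, 0.04 and 0.03 (SE 0.21). A second Dctn1 probe set had 128.8, 128.5 and 129.4 in transplanted SMA, 184.3, 51.7 and 73.4 in SMA, and 65.2, 112.3 and 77.6 in wild type. There all transplanted SMA values lay above all wild-type values, and the differences were 0.10, 0.44 and 0.55 (SE 0.34, lowest adjusted p = 0.841). Dctn2 (dynamitin), which holds the shoulder of the complex together, had 426.3, 411.9 and 451.2 in transplanted SMA, 532.3, 341.2 and 398.5 in SMA, and 406.6, 421.9 and 360.4 in wild type, and SMA mice again held both the highest and the lowest value.

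Dctn3, also of the shoulder, had 395.0, 409.0 and 563.4 in transplanted SMA, 410.9, 267.0 and 350.7 in SMA, and 270.7, 333.5 and 272.5 in wild type. All transplanted SMA values lay above all wild-type values, and SMA overlapped both. The difference in transplanted SMA minus wild type was 0.60 (SE 0.21, 95% interval 0.14 to 1.06, unadjusted p = 0.0147, adjusted p = 0.699), the largest of the 32 motors in that comparison. It was 0.40 without the 3 arrays numbered 3. Dctn3 had 1 tested probe set.

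Dctn4, Dctn5 and Dctn6 sit at the pointed end of the dynactin filament. Dctn4 had 430.8, 233.9 and 188.2 in transplanted SMA, 236.1, 167.0 and 251.5 in SMA, and 178.7, 204.5 and 196.0 in wild type, with transplanted SMA 1 far above the other arrays. Its difference of 0.44 in transplanted SMA minus wild type (SE 0.27) was 0.11 without that array, and a second probe set gave 0.03. Dctn5 had 114.2, 137.5 and 98.6 in transplanted SMA, 121.4, 95.3 and 99.9 in SMA, and 153.7, 124.3 and 152.4 in wild type. All SMA values lay below all wild-type values, by -0.39 log2 units (SE 0.18, unadjusted p = 0.0504, adjusted p = 0.829). Dctn6 had 229.1, 279.1 and 312.9 in transplanted SMA, 246.0, 200.6 and 251.4 in SMA, and 223.4, 205.5 and 247.1 in wild type, and the groups overlapped.

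On their brightest probe sets all 6 dynactin genes had their lowest signal on SMA 2. Second tested probe sets of Dctn4 and Dctn6 had 94.0 and 184.8 there. Their lowest values were 64.4 on SMA 3 for Dctn4 and 116.5 on transplanted SMA 1 for Dctn6. The second Dctn1 probe set was lowest on SMA 2. In transplanted SMA minus SMA the brightest probe sets of all 6 genes had positive differences, from 0.04 to 0.40 with a median of 0.17, and none passed the test. A second Dctn6 probe set gave -0.03, and of 23 alternative fits the sign turned in 4 for Dctn1, 2 for Dctn2 and 1 for Dctn4. By array, the mean deviation of the 6 genes from wild type was 0.22, 0.16 and 0.21 in transplanted SMA, 0.26, -0.24 and 0.01 in SMA, and -0.02, 0.03 and 0.00 in wild type. SMA 1 was as high as the transplanted SMA arrays, and SMA 2 and SMA 3 were lower.

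**Figure D5:**
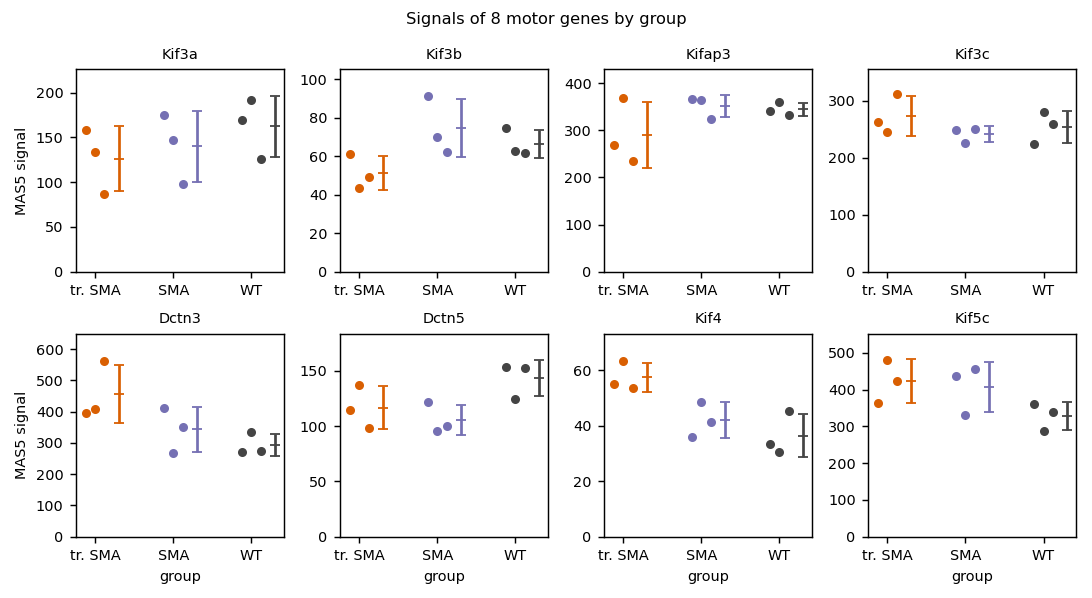
Signals (arbitrary units) of 8 motor genes on the 9 arrays by group (points), with the group mean ± SD beside them. The 3 transplanted SMA points of Kif3b lie below all other points, and those of Kif4 lie above them.

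Low values on SMA 2 were not confined to dynactin. On that array 13 of 32 tested motors had the lowest of their 9 signals on the brightest probe set (40.6%), beside 11.9% of all tested probe sets. The highest signal lay there for 0 of 32 (12.5% of all). The share depended on the probe set: other tested probe sets of Dctn4, Dctn6, Kif1a, Kif1b and Kif5b were not lowest on SMA 2. Those of Dctn1 and Dynll2 were. The 13 were all dynactin genes, Dynll2, Kif1a, Kif1b, Kif1c, Kif21a, Kif5a and Kif5b, from both transport directions. Of the 8 tested dynein genes only Dynll2 was among them, and no kinesin-2 gene was. On SMA 2 the dynein genes lay on both sides of the wild-type mean, from -0.52 for Dynlrb1 to 0.17 for Dync1h1 (log2 units). The highest signals lay on transplanted SMA 2 for 8 motors (25%, beside 8.17% of all) and on transplanted SMA 3 for 7 (21.9%, beside 11.0%). On their brightest probe sets 6 motors were lowest within the group on the third array of every group, or 18.8% beside 11.4% of all. They were Dync1h1, Dync1i1, Dync1li1, Kif2a, Kif3a and Kifap3. On the same arrays 4 were highest (Dctn6, Dynll1, Dynlt3 and Kif5b), or 12.5% beside 8.01%. Another tested probe set of Kif2a, Kif3a, Dctn6, Dynll1, Dynlt3 and Kif5b did not keep this order, while that of Kifap3 did. SMA 2 is one of the muscle-rich arrays and had the lowest oligodendrocyte sum, and the part of these in the motor values was not tested.

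Kif4 and Kif22 are motors of chromosomes in dividing cells. Kif4, an X-linked gene, had 55.0, 63.4 and 53.7 in transplanted SMA, 35.9, 48.6 and 41.4 in SMA, and 33.5, 30.4 and 45.3 in wild type. All transplanted SMA values lay above all SMA and all wild-type values. The difference was 0.49 in transplanted SMA minus wild type (SE 0.18, 95% interval 0.11 to 0.88, unadjusted p = 0.0172, adjusted p = 0.699) and 0.34 in transplanted SMA minus SMA (SE 0.18, adjusted p = 0.933). Xist, which is transcribed from the inactive X chromosome of females, had 733.0, 739.6 and 366.1 in transplanted SMA, 600.7, 879.5 and 47.6 in SMA, and 32.9, 23.5 and 31.7 in wild type. It was high on all transplanted SMA arrays, on SMA 1 and on SMA 2. The Y-linked Eif2s3y had 0.4, 0.3 and 84.8 in transplanted SMA, 0.5, 0.1 and 108.9 in SMA, and 49.0, 54.7 and 75.1 in wild type, so transplanted SMA 3 carried both signals. All wild-type arrays and SMA 3 had low Xist with an Eif2s3y signal. In transplanted SMA against wild type Xist was therefore high on all arrays of one group and low on all of the other, while Eif2s3y overlapped. In SMA against wild type both signals differed in part with the group, through SMA 1 and SMA 2. In transplanted SMA against SMA, Xist was low on SMA 3 alone. These splits of the arrays hold for every motor. The part of sex, which the labels do not give, in the values of Kif4 and the other motors was not tested. The summed signal of 21 proliferation markers was 1970 to 2300 in transplanted SMA, 1280 to 3460 in SMA and 2120 to 2460 in wild type, and these ranges overlap. Kif22 ran from 122.2 to 271.1 with differences of -0.07, 0.09 and 0.02. Of the 9 mitotic kinesins 7 were dim, among them Kif11, Kif20a and Kif23.

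Kif2a, which takes microtubules apart at their ends and trims axon branches, had 183.4, 190.4 and 146.1 in transplanted SMA, 238.3, 236.0 and 209.2 in SMA, and 195.1, 283.5 and 181.8 in wild type. All transplanted SMA values lay below all SMA values, by -0.37 log2 units (SE 0.20, adjusted p = 0.933), and its other 2 tested probe sets gave -0.40 and -0.03. Kifc2 and Kifc3, kinesins that walk to minus ends, ran from 118.9 to 324.3 and from 68.4 to 131.3, and no group stood apart. The 15 dim motors had signals from 0.5 to 67.9 over all arrays, among them Kif9, Kif12, Kif18a, Kif2c, Kif21b, Kifc1 and Kifc5b.

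None of the genes listed as working with the motors passed the test either, though Mapt had a smaller unadjusted p than any motor. Of 41 listed adaptors and regulators of transport 21 were tested, with 0 past the test in any comparison and median differences of -0.09, 0.03 and -0.08. Mapk8ip3, a scaffold that joins kinesin-1 and dynein to axonal cargo, had the smallest p among them, with a mean signal of 73.4 ± 11.0 in transplanted SMA and 105 ± 20.7 in wild type (SD, n = 3 each) and a difference of -0.42 (limma unadjusted p = 0.0451, adjusted p = 0.754). Nde1, a regulator of dynein, followed with -0.38 in the same comparison (adjusted p = 0.754). Of 31 listed tubulins and microtubule-associated proteins 27 were tested, again with 0 past the test, and median differences of 0.05, -0.09 and -0.07.

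Mapt (tau), which coats axonal microtubules, had 192.6, 214.6 and 156.7 in transplanted SMA, 340.4, 291.0 and 284.2 in SMA, and 243.2, 234.2 and 244.9 in wild type. The 3 groups did not overlap, with SMA highest and transplanted SMA lowest. The difference was -0.66 in transplanted SMA minus SMA (SE 0.17, unadjusted p = 0.00239, adjusted p = 0.933) and 0.32 in SMA minus wild type (SE 0.17, adjusted p = 0.867). Clip1, which tracks growing microtubule ends and binds dynactin, differed by -0.37 in transplanted SMA minus SMA (SE 0.16, adjusted p = 0.933). Clasp2, another protein of growing ends, had 186.9, 338.0 and 358.8 in SMA, against 434.1, 383.3 and 391.3 in wild type, a difference of -0.48 (SE 0.24, adjusted p = 0.846).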

How the data were processed

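The data were 9 arrays of laser-cut lumbar motor neurons, grouped from the sample titles as 3 transplanted SMA, 3 SMA and 3 wild-type mice. The deposited value of a probe set is its MAS5 intensity on a linear scale, per the submitters' processing notes. The version of MAS5 and any filter were not given in the sources used here, and no detection calls were used. With 2% of values trimmed from either end, each array's mean was 100, and this scaling by the authors was kept. MAS5 sets each probe against a mismatch partner, and double amplification favours 3′ ends, so signals rank a probe set between arrays and not genes against each other.

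After 64 controls were left out, 22626 probe sets remained, and 16 was added to each signal before log2. The brighter 50% by mean over the 9 arrays (11313 probe sets) entered 1 model with a mean per group in limma 3.58.1 (lmFit, eBayes with trend) under R 4.3.3, with 6 residual degrees of freedom. Tests were two-sided, adjusted by Benjamini-Hochberg over all tested probe sets, with a threshold of 0.05. Differences on this scale understate the change of dim genes. The script was checked on simulated data. The number of arrays limits the precision. The p-values rest on the spread between arrays of a group, each from 1 mouse. In that spread, differences between mice and differences in capture, RNA quality and amplification cannot be told apart.

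Gene names came from the platform annotation, which can be old, and a gene without a probe set of its own was not analysed here. Values on all arrays are given for core axonal motors, for motors with an unadjusted p under 0.05 and for the 3 largest differences each way. The members, role groups and lists were chosen with earlier results of these data known. Promoters came from RefSeq (GRCm38.p6), which held 38 of the 47 genes. Sample numbers shared by the groups were not taken as pairs, because the correlations of same-numbered arrays ran from -0.0832 to 0.453. Alternatives were other normalisations, pseudocounts, filters, weights, probe set choices, a replicate block and arrays left out.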

Additional observations from a re-analysis of the deposited data

How the results depend on the processing

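Under the 23 alternative fits and at a threshold of 0.10, 0 motor genes passed in any comparison. At an unadjusted p under 0.05 the counts were 0 in SMA minus wild type, 1 in transplanted SMA minus SMA and 2 in transplanted SMA minus wild type. With the sample number as a replicate block the count was 0 in all 3 comparisons, and the block changed no call; same-numbered arrays did not correlate above 0.1 in every pair. In transplanted SMA minus SMA, leaving out SMA 1 and SMA 2 gave an anterograde median of -0.12 (0.05 with all arrays) and an anterograde minus retrograde mean of -0.10, and in SMA minus wild type that mean was 0.09. Leaving out probe sets with shared probes gave retrograde medians of 0.14 in transplanted SMA minus SMA and 0.11 in transplanted SMA minus wild type. The anterograde minus retrograde mean was then -0.06 in SMA minus wild type and -0.13 in transplanted SMA minus wild type. That setting removes some genes and turns others to a second probe set; the cause was not tested further. Leaving out 1 array at a time moved the anterograde median within -0.09 to 0.07, 0.00 to 0.16 and -0.05 to 0.07 in the 3 comparisons, and the retrograde median within -0.07 to 0.03, 0.03 to 0.18 (the highest without SMA 3) and -0.06 to 0.08. Anterograde minus retrograde stayed within -0.02 to 0.06, -0.06 to 0.02 and -0.04 to 0.04. Of the 32 motors, 9, 9 and 18 kept the sign of their difference under every alternative fit that gave a value. With 3 arrays a group the median standard error of a motor's log2 difference was 0.20, and 15 motors were too dim to test.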
